A study of Mus musculus with 3 samples.

Results

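The genes described here are 9 members of the PARP family of ADP-ribosyltransferases (Parp1, Parp3, Parp4, Parp8, Parp9, Parp10, Parp11, Parp12 and Parp14) together with Dtx3l, which encodes the ubiquitin ligase partner of PARP9. They were chosen by symbol, with earlier results of these data known. Each matched 1 gene identifier, so they are 10 of the 55536 mouse genes quantified. Their levels were read in polyadenylated RNA from bone marrow-derived macrophages of the C57BL/6J strain, primary cells grown out of mouse marrow. The cells had been exposed for 180 min to 100 ng/mL of a stimulus that the labels call lipid A in one field, the lipopolysaccharide portion sensed by Toll-like receptor 4, and lipoprotein A in the others. The age and sex of the animals were not collected. The 3 libraries are biological replicates of a single group and carry the same donor identifier, so the spread between them may be partly technical. No unstimulated group was analysed here, and no level below is a response to the stimulus.

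PARP enzymes take ADP-ribose from NAD and attach it to proteins or nucleic acids. Some, such as PARP1, build long chains at broken DNA, whereas most of the others add a single unit, and PARP9 acts together with DTX3L, with which it forms a stable complex. Several of these genes, among them the ones encoding PARP9, DTX3L, PARP12 and PARP14, are known as interferon-stimulated genes, and activated macrophages release type I interferon after Toll-like receptor 4 is engaged.

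Depth was 24450338, 34641026 and 60595742 gene counts in replicates 1, 2 and 3. A gene was called detected at 1 TPM (a transcript abundance scaled by length and to the same total in each library) or more in every replicate, which 10026 genes reached. All 10 macrophage markers were detected, 8 of them at 100 TPM or more in every replicate. Of 8 neutrophil markers 3 were detected, and their summed level was 83.3, 714 and 48.4 TPM in replicates 1, 2 and 3, so that replicate 2 stood apart, and only Retnlg was at 0 in any library. Markers of T cells (0 of 5 detected), natural killer cells (0 of 3), erythroid cells (all 3 at 0 counts) and stroma (0 of 4) were low, and 1 of 4 B cell and 1 of 3 endothelial markers were detected. In bulk RNA of this kind, fewer cells expressing a gene and less RNA per cell cannot be told apart.

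Upstream sequence is shown for 3 genes, because interferon-responsive genes commonly carry a response element just before the start site. RefSeq promoter windows (GRCm38.p6, 250 bases before to 50 bases after the start) were available here for 7 of the 10 genes, in 8 windows. None was available for Parp9, Parp10 and Parp14, so these were not searched. Parp4 and Parp11 are the ones in which a searched motif was found, and Parp12 is the one with the highest level among those with no match whose start coincides with that of its leading transcript. The sequences end at the base before the start site and begin at the window's edge or, for Parp4 and Parp12, after the nearest exon annotated upstream. Capitals mark motif matches.
Parp4 (chr14:56575426-56575618, plus strand): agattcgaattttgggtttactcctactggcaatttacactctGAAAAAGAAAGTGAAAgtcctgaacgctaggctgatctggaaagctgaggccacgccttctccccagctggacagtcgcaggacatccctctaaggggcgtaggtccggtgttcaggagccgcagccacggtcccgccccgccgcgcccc
Parp11 (chr6:127446590-127446839, plus strand): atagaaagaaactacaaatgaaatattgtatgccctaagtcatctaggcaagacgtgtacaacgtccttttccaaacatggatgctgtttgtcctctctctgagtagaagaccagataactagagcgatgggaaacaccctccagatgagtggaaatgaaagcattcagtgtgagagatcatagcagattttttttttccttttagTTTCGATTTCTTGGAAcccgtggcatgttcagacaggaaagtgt
Parp12 (chr6:39118350-39118472, minus strand): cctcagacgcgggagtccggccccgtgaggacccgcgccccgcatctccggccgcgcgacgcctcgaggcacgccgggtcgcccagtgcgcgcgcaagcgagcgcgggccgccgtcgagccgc

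The core of the interferon-stimulated response element, searched on both strands as GAAA and GAAA with any 2 bases between them, was present in 2 of the 7 genes, beside 3.99% of 27025 genes in the RefSeq table. In Parp4 there were 2 overlapping matches, GAAAAAGAAA beginning 150 bases before the start and GAAAGTGAAA beginning 144 bases before it. In Parp11 the match lay on the opposite strand, as TTTCGATTTC beginning 44 bases before the start of the upstream window. It overlapped the sole match to the gamma-activated site, searched as TTCNNNGAA, which reads the same on both strands (TTCTTGGAA, 37 bases before the start; 1 of 7 genes against 9.55% of all genes). The kappa-B motif, searched on both strands as GGGA and TTCC with any 2 bases between them, was in 0 of 7, beside 1.63% of genes. The stretch shown for Parp12 is 81.3% G and C, against 40.4% in that of Parp11 and 57.5% in that of Parp4. These are matches of letters in short windows, and neither a match nor its lack was tied to a level.

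All 10 genes were detected, beside 18.1% of all genes and 42.6% of protein-coding genes. Parp14, Parp9, Dtx3l and Parp12 reached 100 TPM in every replicate (4 of 10, beside 11.4% of detected genes). Because the genes were chosen with earlier results of these data known, these shares do not test whether the genes are unusual. Mean levels ran from 668 TPM for Parp14 to 21.8 TPM for Parp1, a 30.7-fold range, and every gene lay above the median detected gene, at 14.6 ± 0.535 TPM (SD, n = 3). The median of the 10 genes was 1.86 ± 0.34 (SD, n = 3) above that of all detected genes on the log2(TPM + 0.1) scale, with 2.26, 1.68 and 1.65 in replicates 1, 2 and 3. Relative to all genes above 0 TPM in every replicate, this difference in level was 3.38.

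**Figure D1:**
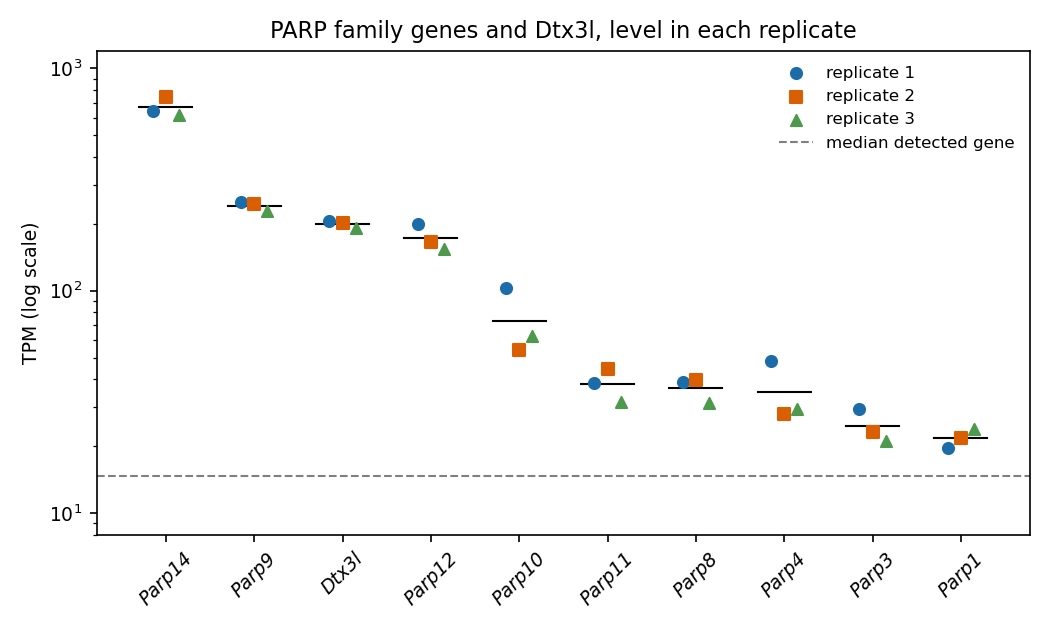
TPM of each gene (log axis) in replicates 1, 2 and 3, ordered by mean level; the black bar is the mean of the replicates and the dashed line the median detected gene (14.6 TPM). Parp14 stands highest, at 615 to 746 TPM, and Parp10 and Parp4 show the widest spread between replicates.

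Parp14 was the most abundant. It encodes a large mono-ADP-ribosyltransferase with several macrodomains, modules that bind ADP-ribose, and is known in mouse lymphocytes as a coactivator of STAT6. Parp14 had 642, 746 and 615 TPM in replicates 1, 2 and 3, and lay above 97.6 to 98.1% of detected genes in each. Replicate 2 was highest, by 1.21-fold over the lowest. Its count, 357738 over the 3 libraries, was the largest of the 10. The detected protein-coding genes outside the lists with the closest levels were Cdc42, Cybb and Cd52, with root mean square differences of 0.086, 0.089 and 0.095 on the log2 scale over the 3 libraries, among 9319 candidates. In the second quantification, which per the deposited notes was derived from the read files where the main one was derived from an alignment, Parp14 was again highest, with 456, 711 and 506 TPM.

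Parp9 and Dtx3l followed at levels close to one another. PARP9 carries macrodomains and DTX3L is a Deltex-type ubiquitin ligase. Parp9 had 250, 245 and 228 TPM in replicates 1, 2 and 3, and Dtx3l had 207, 201 and 190.5 TPM. Both were highest in replicate 1 and lowest in replicate 3, and their values did not overlap. Their coefficients of variation over the replicates, 4.76% and 4.15%, were the lowest of the 10 genes in the main TPM, and 7.77% and 5.89% of the 4248 detected genes with a mean above 20 TPM varied less. They were 14.2% and 13.7% in the second quantification, above those of Parp4 (10.5%) and Parp12 (13.2%). The log2 ratio of Parp9 to Dtx3l was 0.27, 0.28 and 0.26 in the 3 replicates, a mean of 0.27 ± 0.011 (SD, n = 3) or 1.21-fold, the smallest spread of the 15 pairs compared in the main TPM. The exact two-sided sign-flip permutation test gave p = 0.25, the smallest that 3 replicates allow, and 0.341 after Benjamini-Hochberg adjustment over the 15 pairs. The second quantification gave a ratio of 0.30 ± 0.043 (SD, n = 3), and counts not scaled by transcript length gave the opposite sign, -0.73, with 46161 counts for Parp9 and 76984 for Dtx3l over the 3 libraries. The leading Dtx3l transcript is 5309 bases long and the leading Parp9 transcript 2973 bases.

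The genes nearest to Parp9 in level over the 3 libraries were Id2, Morf4l1 and Ifit3b, with root mean square log2 differences of 0.062, 0.064 and 0.070. Those nearest to Dtx3l were Chchd2, Dync1i2 and Pitpna, at 0.039, 0.055 and 0.059. Parp14 exceeded Parp9 by 1.47 ± 0.13 and Dtx3l by 1.74 ± 0.14 on the log2 scale (SD, n = 3), and the ratios had the same sign in 3 of 3 replicates, each with an exact permutation p = 0.25.

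These 3 genes lie together on chromosome 16 (mm10, GENCODE M21). Parp14 spans chr16:35832874-35871544 on the minus strand and Dtx3l chr16:35926511-35939151 on the same strand, 55.0 kb apart with 0 protein-coding genes annotated between them. Parp9 spans chr16:35938470-35972605 on the plus strand and overlaps Dtx3l by 682 bases. Parp9 and Dtx3l are therefore head to head, and the starts of their leading transcripts are 140 bases apart. No source used here says whether the reads were counted by strand, so reads within the shared stretch could have gone to either gene.

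**Figure D2:**
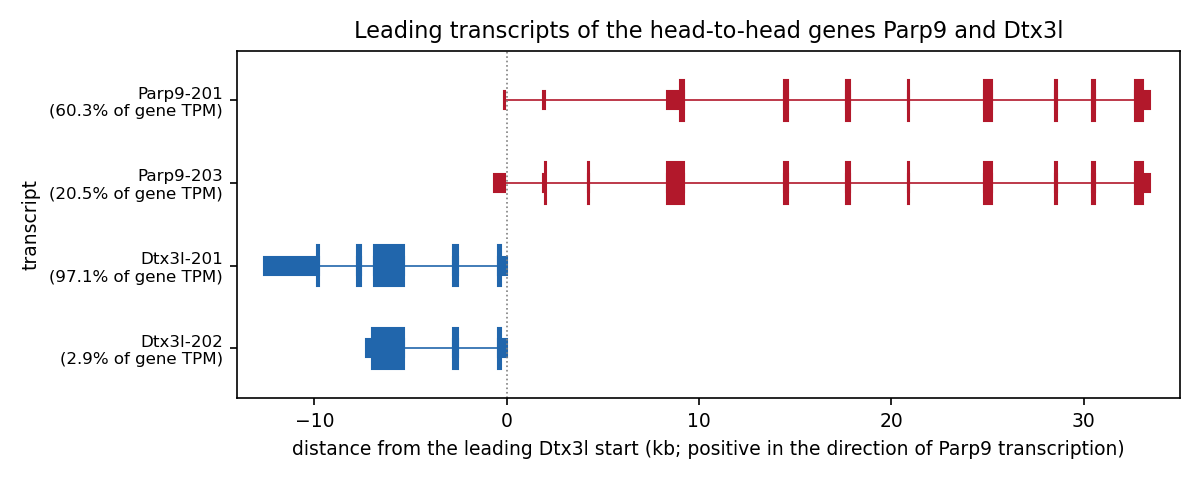
Exons (low boxes) and coding parts (tall boxes) of the main coding transcripts of Parp9 (red) and Dtx3l (blue), by distance in kb from the start of Dtx3l-201, with each transcript's mean share of its gene's TPM. The genes run in opposite directions from starts that lie close together, and Parp9-203 has coding parts that Parp9-201 lacks.

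Parp12 encodes a zinc finger mono-ADP-ribosyltransferase related to the antiviral protein ZAP, the product of Zc3hav1. Parp12 had 199, 165 and 153 TPM in replicates 1, 2 and 3, highest in replicate 1. Its coding transcript Parp12-201 had 156, 132 and 142 TPM, lowest in replicate 2. Parp12-202, a retained-intron transcript annotated without coding sequence, had 43.1, 33.0 and 11.4 TPM. Its part in the gene-level ratios below was not tested. Zc3hav1 had 179, 193 and 188 TPM. The log2 ratio of Parp12 to Zc3hav1 was -0.12 ± 0.24 (SD, n = 3; exact permutation p = 0.5), positive in replicate 1 and negative in the others, so that this pair did not differ beyond its spread. Dtx3l exceeded Parp12 by 0.22 ± 0.14 on the log2 scale, by only 0.06 in replicate 1, where the second quantification gave -0.08.

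Parp10, Parp11, Parp8 and Parp4 formed the middle of the order. PARP10 is a mono-ADP-ribosyltransferase known as a partner of MYC. Parp10 had 103, 54.1 and 62.6 TPM in replicates 1, 2 and 3, 1.89-fold higher in replicate 1 than in replicate 2, the widest range of the 10 genes in the main TPM. Its coefficient of variation was 35.4% in TPM, 31.8% in CPM (counts scaled to the library total) and 26.9% in the second quantification, where replicate 1 was again highest (83.4, 55.9 and 51.8 TPM). Parp11 varied slightly more in the second quantification, with 27.9%. Parp10 overlaps Plec on the same strand by 1401 bases, and Plec, which encodes the cytoskeletal linker plectin, had 89.6, 79.4 and 66.4 TPM. How reads in that overlap were assigned was not tested.

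PARP11 adds single ADP-ribose units and is known in mouse for a role in shaping the sperm head, and PARP8 is a little-studied member with the same kind of activity. Parp11 had 38.3, 44.3 and 31.6 TPM in replicates 1, 2 and 3, and Parp8 had 38.8, 39.7 and 31.4 TPM. Both were highest in replicate 2, where the neutrophil markers were highest too, as was Parp14. The part of that in these values was not tested. The 2 genes did not differ beyond their spread (log2 ratio of Parp11 to Parp8 0.05 ± 0.09, SD, n = 3; exact permutation p = 0.75). The second quantification set Parp11 above Parp8 by 0.41 on the log2 scale. Parp6, which encodes the closest relative of PARP8, had 4.31, 5.20 and 4.72 TPM, and Parp8 was 7.56-fold higher (log2 ratio 2.92 ± 0.22, SD, n = 3), the largest ratio among the 15 pairs.

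PARP4 is the catalytic protein of the vault, a large cytoplasmic ribonucleoprotein. Parp4 had 48.3, 27.9 and 29.3 TPM in replicates 1, 2 and 3, so replicate 1 stood well above the others. CPM of the same gene were even, at 97.2, 83.6 and 88.0, and its coefficient of variation was 32.3% in TPM and 7.74% in CPM. The TPM difference lay in a short retained-intron transcript, Parp4-202, an annotated RNA of 835 bases that codes for no protein. Parp4-202 had 26.6, 8.27 and 7.94 TPM, whereas the coding Parp4-201 had 21.6, 19.6 and 21.4 TPM. In the second quantification Parp4-202 had 7.25, 0 and 0.128 TPM, and Parp4 as a whole 24.0, 21.005 and 19.5 TPM. Parp4 was above Parp3 by 0.48 ± 0.22 on the log2 scale (SD, n = 3), and in the second quantification by -0.05, so the order of these 2 genes depended on the quantification.

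Parp3 and Parp1, the members known to be switched on by broken DNA, were lowest. PARP1 is the abundant nuclear enzyme that makes most of a cell's poly(ADP-ribose), and PARP3 adds single units during repair of double-strand breaks. Parp3 had 29.4, 23.1 and 21.2 TPM in replicates 1, 2 and 3, and Parp1 had 19.7, 21.7 and 23.9 TPM. They did not differ beyond their spread (log2 ratio of Parp1 to Parp3 -0.16 ± 0.38, SD, n = 3; exact permutation p = 0.75). In the main TPM Parp1 was the single gene of the 10 that was highest in replicate 3, and it lay above 57.5 to 62.8% of detected genes. In the second quantification Parp1 was highest in replicate 2 (14.3, 21.5 and 19.5 TPM). Parp2, the other strand break-dependent member, had 12.5, 13.6 and 12.5 TPM, and Parp1 was above it by 0.75 ± 0.16 on the log2 scale (SD, n = 3), in 3 of 3 replicates. This log2 ratio was 0.44 ± 0.47 in the second quantification, with -0.01 in replicate 1, so that it no longer exceeded its SD.

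The other 7 genes lie apart from these on 6 chromosomes (mm10, GENCODE M21). Parp12 (chr6:39086410-39118349, minus strand) and Parp11 (chr6:127446840-127494261, plus) share chromosome 6. Parp10 is at chr15:76231174-76243441 (minus), Parp8 at chr13:116854820-117025537 (minus) and Parp4 at chr14:56575619-56659794 (plus). Parp3 is at chr9:106470322-106476949 (minus) and Parp1 at chr1:180568924-180601254 (plus).

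Of the 15 pairs, 9 were neighbours in the order of mean level. Among these 9, 6 kept one sign in all replicates with a mean ratio above its SD, and Parp11 with Parp8, Parp8 with Parp4, and Parp3 with Parp1 did not. Over all 15 pairs the number was 11, of which 5 were over 2-fold. In the second quantification 8 of the 15 met the same condition, of which 6 were among these 11. Parp1 with Parp2, Parp4 with Parp1, Dtx3l with Parp12, Parp10 with Parp11 and Parp4 with Parp3 no longer met it, and Parp11 with Parp8 and Parp8 with Parp4 did. In counts not scaled by length all 15 met it, and 4 had the opposite sign (Parp9 to Dtx3l, Parp1 to Parp3, Parp11 to Parp8 and Parp8 to Parp4). No pair could reach p below 0.25 with 3 replicates, and the adjusted p was 0.341 for each of the 11.

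Within the 16 PARP family genes measured (the 9 described here and 7 others), Parp14 alone made up 39.3 ± 2.67% of the summed TPM (SD, n = 3), and Parp14 with Parp9 made up 53.4 ± 2.40%. The zinc finger group of Parp12, Zc3hav1 and Tiparp held 29.3 ± 0.804%. The strand break-dependent group of Parp1, Parp2 and Parp3 held 3.49 ± 0.185%. Of the 7 others, 6 were detected and 2 reached 100 TPM, Zc3hav1 and Tiparp (144, 146 and 127 TPM), which encodes a mono-ADP-ribosyltransferase induced by the aryl hydrocarbon receptor. Parp16, whose product sits in the endoplasmic reticulum membrane, was lowest at 0.62, 0.43 and 0.54 TPM.

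**Figure D3:**
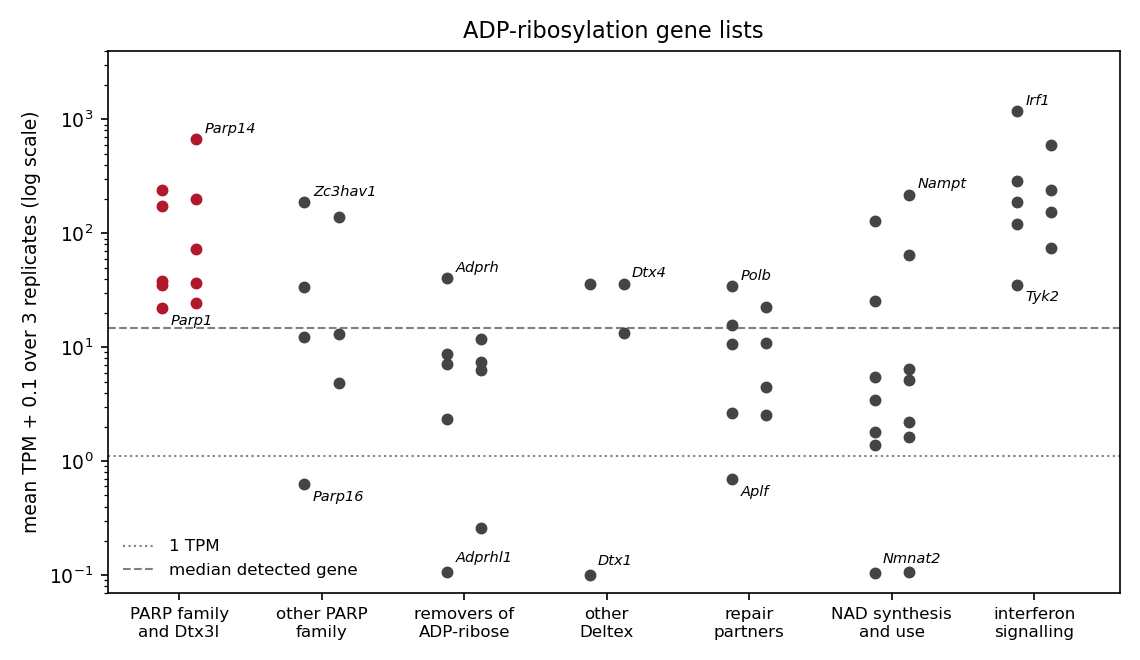
Mean TPM + 0.1 over the 3 replicates (log axis) of each gene of the 10 described here (red) and of 6 related lists (grey), with the highest and lowest gene of each list named. The 10 genes run from 21.8 to 668 TPM, all above the dashed line of the median detected gene, and the removers of ADP-ribose, the repair partners and the NAD genes lie mostly below it.

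The enzymes that remove ADP-ribose were lower. Of 9 removers, 7 were detected and 0 reached 100 TPM, and their median level was 1.04 ± 0.27 below that of detected genes on the log2 scale (difference -1.04, SD, n = 3). The highest was Adprh, which encodes a hydrolase that frees arginine from ADP-ribose, at 38.8, 39.3 and 43.1 TPM, and the lowest was Adprhl1, at 0, 0 and 0.02 TPM. Parg, which encodes the main glycohydrolase of ADP-ribose chains, averaged 11.6 ± 0.796 TPM (SD, n = 3).

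Dtx3l stood above its own relatives: of 4 other Deltex genes 3 were detected and 0 reached 100 TPM. Dtx4 was the highest of them at 25.5, 44.1 and 38.4 TPM, and Dtx1 had 0 counts in every replicate, which allows up to 1.23e-05% of the counts in replicate 1, the shallowest library (3 counts; counting error only). Of 9 partners of PARP1 in strand break repair, 8 were detected and 0 reached 100 TPM, with a median difference of -0.60 ± 0.16 from detected genes (log2, SD, n = 3). Polb, which encodes the gap-filling DNA polymerase beta, led them at 36.1, 35.2 and 31.0 TPM, and Aplf, encoding a histone chaperone that binds ADP-ribose chains, was lowest at 0.27, 0.72 and 0.79 TPM.

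Of 14 genes that make or use NAD, the donor of ADP-ribose, 11 were detected and 2 reached 100 TPM. Nampt, encoding the rate-limiting enzyme of NAD salvage, had 242, 232 and 181 TPM, close to Parp9, and Nmnat2 had 0, 0.01 and 0 TPM. Interferon signalling factors were the highest of these lists: 9 of 9 were detected, 7 at 100 TPM or more, and their median was 3.68 ± 0.03 above that of detected genes (log2, SD, n = 3). Irf1 led with 1304, 1174 and 1068 TPM, and Tyk2, a Janus kinase of the interferon receptor, was lowest with 45.9, 29.4 and 30.7 TPM. These are counts and medians in 1 group, beside the 18.1% of all genes that were detected, and differences between lists were not tested.

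Across the 10 genes 56 transcripts are annotated, of which 33 had 1 TPM or more in every replicate and 4 were at 0 in every one. The leading transcript was protein-coding in 10 of 10 genes and was the same in both quantifications in 10 of 10. A single coding transcript dominated Dtx3l, where Dtx3l-201 took 97.1 ± 0.186% of the gene's TPM (SD, n = 3). Parp1-201 took 94.3 ± 5.04% and Parp14-201 93.6 ± 1.19%. Shares were more divided in the others, from 83.7 ± 7.77% for Parp12-201 to 39.4 ± 7.39% for Parp3-203, whose coding sequence is identical in its 10 blocks to that of Parp3-201.

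The TPM of Parp9 was assigned to transcripts with different coding sequence. Parp9-201, with 1791 coding bases, took 60.3 ± 3.49% and Parp9-203, with 2490, took 20.5 ± 0.517% (SD, n = 3). Parp9-203 starts 541 bases further upstream, and its share was 20.0, 20.97 and 20.7% in replicates 1, 2 and 3. The first exon of Parp9-203 (591 bases) overlaps that of Dtx3l-201 (458 bases) on the opposite strand. With the strand setting unknown, reads there could have gone to either gene, and their part in this share was not tested. In the second quantification the shares were 52.5% for Parp9-201 and 25.4 ± 3.08% for Parp9-203, in the same order.

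Parp11 had the most transcripts, 10, and no majority one. Parp11-202 took 40.3 ± 5.02% of its TPM and Parp11-201 took 24.7 ± 2.82% (SD, n = 3). Their starts are 6883 bases apart, and the start of Parp11-202 is the one whose upstream window, printed above, holds the overlapping response element and gamma-activated site matches. The other Parp11 window, with its start at chr6:127453627 near that of Parp11-201, held no match to a searched motif. Parp11-202 has 744 coding bases and Parp11-201 has 993. Start sites were not measured, and the shares that follow group transcripts by their annotated start. Transcripts with upstream starts held 40.3 ± 5.02% of Parp11 TPM and those in the cluster around Parp11-201 held 46.3 ± 1.85%. Those annotated to start further downstream, all of them retained-intron transcripts, held 13.4 ± 6.55%. In the second quantification these shares were 42.2, 39.1 and 18.8%, so which of the first 2 was larger depended on the quantification. The upstream starts pool Parp11-202 with Parp11-204, which was at 0 TPM in the main quantification. Parp11-204 held 10.5% in the second, where Parp11-202 alone held 31.7%, below the cluster around Parp11-201.

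Parp8 and Parp10 each had 2 main coding transcripts. Parp8-203, with 2556 coding bases, took 74.1 ± 4.86% and Parp8-201, with 2673, took 22.5 ± 4.65% (SD, n = 3). Parp10-201 took 68.1 ± 7.02% and Parp10-202 11.9 ± 2.79%, and both have the same 2880 coding bases. For Parp10 the range between replicates was in the leading transcript too in the main quantification, with 62.0, 37.6 and 46.5 TPM for Parp10-201 in replicates 1, 2 and 3. In the second quantification Parp10-201 was more even, at 45.7, 35.6 and 37.2 TPM, and Parp10-202 had 11.7, 5.29 and 7.42 TPM. There the non-coding Parp10-206 had 9.57, 5.79 and 1.55 TPM and the non-coding Parp10-204 had 8.99, 3.25 and 1.95 TPM.

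Transcripts annotated as retained introns held a part of 9 of the 10 genes, all but Dtx3l, for which no such transcript is annotated. For Parp12 the retained-intron transcript Parp12-202 held 21.6, 19.9 and 7.40% in replicates 1, 2 and 3, and for Parp3 the 3 such transcripts together held 28.8, 25.4 and 16.6%. Parp4 had the highest share, 55.2, 29.6 and 27.1%, and Parp8 the lowest mean share, 1.10 ± 0.157% (SD, n = 3). The share was highest in replicate 1 in 6 of the 9 genes and lowest in replicate 3 in 6 of 9. Over the 5429 genes with such transcripts, 51.2% were highest in replicate 1 and 52.0% lowest in replicate 3, with median shares of 3.86, 3.06 and 2.18%.

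**Figure D4:**
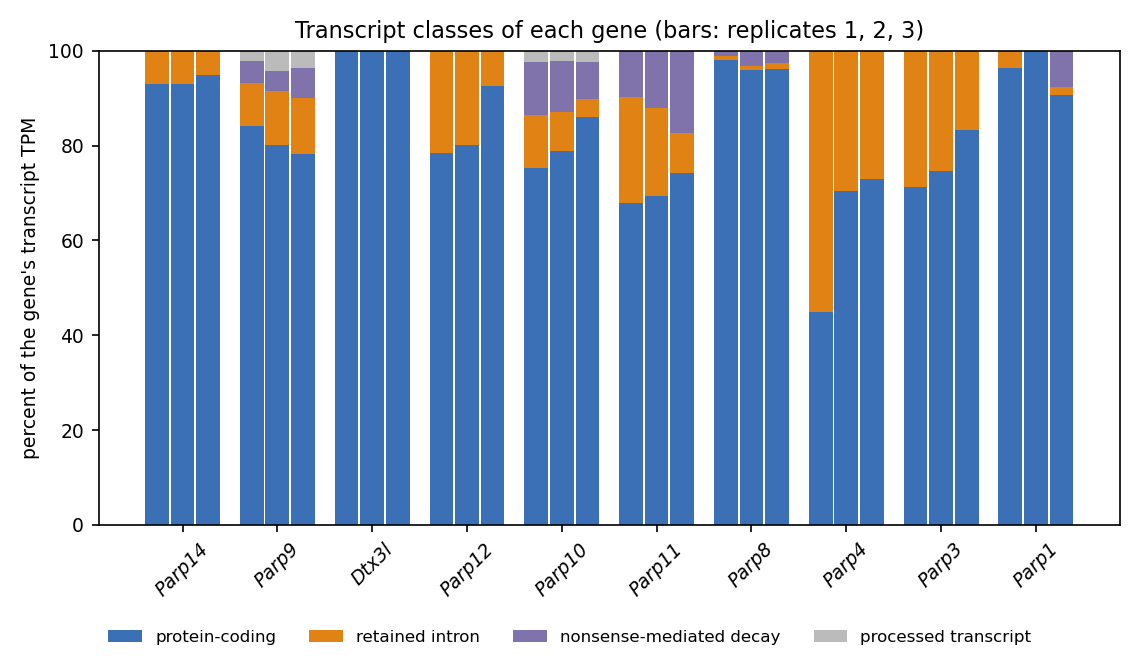
Percent of each gene's transcript TPM in each annotated transcript class, with 3 bars per gene for replicates 1, 2 and 3. Retained-intron transcripts take most of Parp4 in replicate 1 (55.2%), and none is annotated for Dtx3l.

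The replicates differed by more than counting noise in all 10 genes. A chi-square test of the rounded expected counts against equal rates, with edgeR's normalization (TMM) and Benjamini-Hochberg adjustment at 0.05, called 10 of 10, beside 77.5% of the 11611 genes tested. At these depths such departures were the rule, and the number says nothing particular to the 10. Without replicate 1, 8 were called, beside 64.3% of genes, and Parp3 and Parp9 were not. Without replicate 2, 9 were called, beside 50.6%, and Parp14 was not, and without replicate 3, 9 were called, beside 58.8%, and Parp8 was not. With library totals, DESeq2 size factors, no filter on low counts or the second quantification, 10 of 10 were called, beside 78.2, 77.6, 49.6 and 77.7% of genes.

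In the main TPM the median coefficient of variation of the 10 genes was 13.1%, against 16.5% over all detected genes and 14.1% over those above 20 TPM. For the 10 genes it was 17.7% in the second quantification, 10.8% in CPM and 6.54% in the main TPM without replicate 1. No value over all genes was computed beside these. In the main TPM, replicate 1 held the highest value for 6 of the 10 genes (30.4% of detected genes), replicate 2 for 3 (43.9%) and replicate 3 for 1 (25.7%). Replicate 3 held the lowest for 7 (34.9% of detected genes). In the second quantification, replicate 1 was highest only for Parp10, Parp4 and Parp3, and replicate 2 was highest for the others. The edgeR biological coefficients of variation of the 10 ran from 17.3% for Parp1 to 23.4% for Parp10, against a median of 21.3% over the genes tested. These edgeR values borrow from the other genes, so they are not each gene's own spread. Dtx3l had 17.6% here and 4.89% in CPM, and Parp10 had 23.4% and 31.8%. The 2 genes with the widest TPM spread behaved differently on other scales: Parp10 kept it in CPM, and Parp4 did not.

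**Figure D5:**
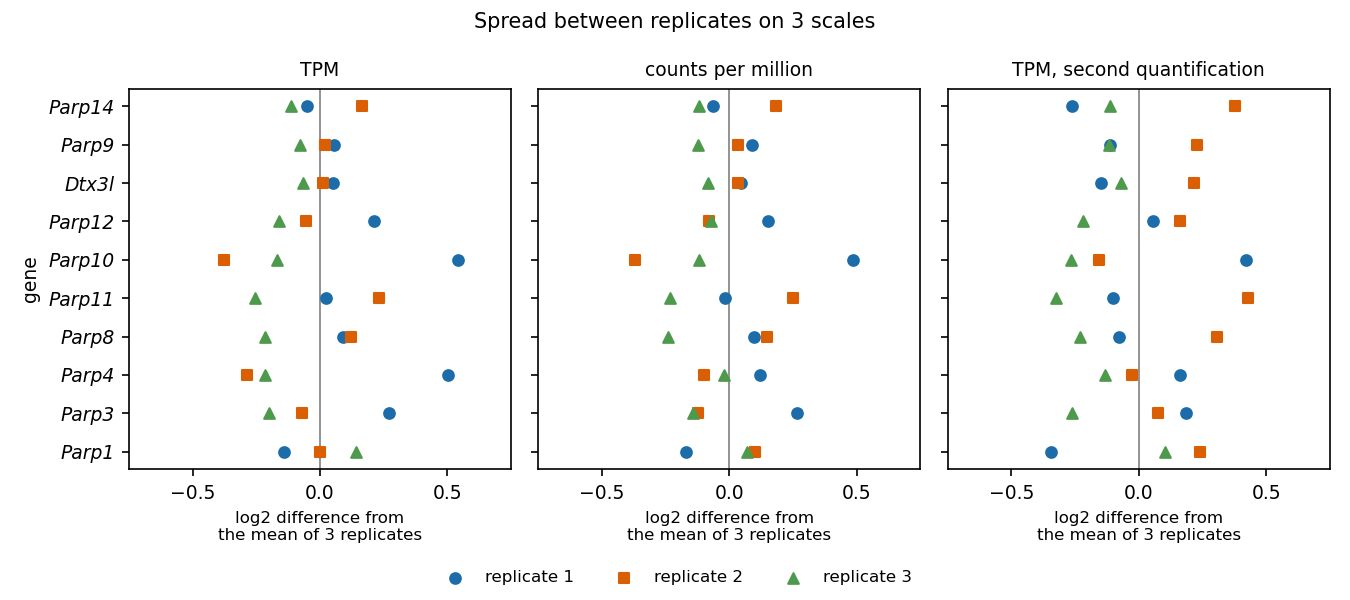
Log2 difference of each replicate from the mean of the 3, per gene, in TPM, in CPM and in the TPM of the second quantification. Parp9 and Dtx3l have the narrowest spread in the main TPM, Parp10 is high in replicate 1 on all 3, and Parp4 is high in replicate 1 mainly in TPM.

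The second quantification set most levels lower in replicates 1 and 3, for these genes as for others. The ratio of second to main TPM had a median over the 10 genes of 0.760, 0.990 and 0.825 in replicates 1, 2 and 3, beside 0.761, 0.959 and 0.829 over detected genes. Parp9 had 186, 236 and 186 TPM in it and Dtx3l 148, 190.5 and 156 TPM, both highest in replicate 2 on this scale. Parp12 had 156, 168 and 129 TPM. Parp14, Parp9, Dtx3l and Parp12 were again the 4 genes at 100 TPM or more in every replicate.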

How the data were processed

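Per the labels, polyadenylated RNA of 3 libraries was sequenced, each from 1 µg of RNA. The authors deposited gene tables with expected counts, TPM and FPKM, transcript tables that add the percent of each gene's abundance held by a transcript, and a second transcript table of TPM and estimated counts, as the file headers name them. Assembly mm10 and annotation GENCODE M21 are named in the deposited notes. The aligner, the quantifiers and their strand setting were not given in the sources used here. Entries that are not mouse genes held 0.117, 0.0993 and 0.082% of counts in replicates 1, 2 and 3 and were left out.

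Levels are deposited TPM. Ratios used log2(TPM + 0.1), tested over the 3 replicates by exact permutation of signs (two-sided), with Benjamini-Hochberg adjustment over 15 pairs. Expected counts were rounded for a chi-square test against equal rates, with TMM and the default filter on low counts of edgeR 4.0.16 in R 4.3.3 (DESeq2 1.42.0 size factors as an alternative), checked on simulated data. Transcript shares are percentages of the summed transcript TPM, recomputed and within 0.0315 points of the deposited percent for the 10 genes. Promoter sequences are from RefSeq (GRCm38.p6). Named outside the 10 genes are the highest and lowest of each list by mean TPM, the partners in the compared pairs and the 3 nearest genes of the 3 most abundant members. Parg, Tiparp, Retnlg and the genes overlapping members were added after their values were seen. The genes and lists were chosen with earlier results of these data known. Alternatives were the second quantification, FPKM, pseudocount, thresholds, scaling and leaving out each replicate.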

Additional observations from a re-analysis of the deposited data

How the results depend on the processing

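No paired analysis was possible because there is a single group. Of the alternatives for the main values, 43 stayed close, 4 moved by more and 1 turned its sign. Close means within 1 SD over the replicates. For a number of genes or pairs, and for the median coefficient of variation, it means within 1.5 times the main one. The sign of the Parp9 to Dtx3l log2 ratio turned to -0.73 in counts not scaled by length, since the transcripts differ in length, and the ratio was 0.30 in the second quantification. The median level of the 10 genes was 3.38 relative to all genes above 0 TPM, because low genes enter the comparison. The median share of the leading transcript was 76.5% in the second quantification, against 72.0% in the main one. Among single values, 105 stayed within 1 SD and 18 moved by more, and the Parp4 to Parp3 log2 ratio, which had 1 sign in every replicate, turned to -0.055 in the second quantification. Pairs that did not differ beyond their spread also turned: in counts not scaled by length, Parp1 to Parp3 was 0.69, Parp8 to Parp4 -0.45 and Parp11 to Parp8 -0.14, and leaving out 1 replicate gave 0.043, -0.11 and -0.0036 for these pairs in the same order. The number of pairs that met the condition was 8 in the second quantification and 15 in counts not scaled by length, against 11. The cause was not tested. Leaving out each replicate gave 1.72 to 2.05 for the median level, 0.268 to 0.279 for the Parp9 to Dtx3l ratio, 11 to 13 for one-sided pairs, 6.54 to 14.4% for the median coefficient of variation (lowest without replicate 1), 69.8 to 73.2% for the leading transcript and 8 to 9 for genes departing from equal rates. Leaving out any 1 replicate kept 10 genes detected and 4 at 100 TPM or higher. Counts per gene over the libraries ran from 3512 for Parp3 to 357738 for Parp14.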

Other observations

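The quantifications disagreed on some minor transcripts of these genes. Parp11-204, a coding transcript, was at 0 TPM in every replicate in the main quantification and held 10.5 ± 0.266% of Parp11 TPM in the second (SD, n = 3). Parp10-205, annotated for nonsense-mediated decay, held 11.1, 10.8 and 7.87% of Parp10 TPM in replicates 1, 2 and 3 in the main quantification and 1.87, 1.76 and 1.01% in the second. Parp4-202 held 55.2, 29.6 and 27.1% in the main one and 30.3, 0 and 0.656% in the second.

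Parp3 overlaps Rrp9, which encodes a nucleolar protein, on the opposite strand by 987 bases, and Rrp9 had 6.32, 8.15 and 7.41 TPM. Parp4 holds the antisense gene Gm16573 over 13253 bases, which had 0.23, 0.08 and 0 TPM.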
